A study of Mus musculus with 15 samples.

Results

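A set of 10 genes of the liver's stellate cells, pericytes and fibrillar collagens was followed across 15 bulk RNA-seq libraries of mouse liver. They were taken by gene name from a table of 54532 genes, and all 10 were found: Rgs5, Des and Pdgfrb of pericytes and related contractile cells, Lrat, Reln, Ecm1 and Hgf of stellate cells, and the collagen genes Col1a1, Col1a2 and Col3a1. Livers were collected at postnatal day 12 from the strains labelled C57 and BALBc. Pups of the hyperoxia groups were kept in room air until day 7 and then in 75% oxygen until harvest, and pups of the normoxia groups breathed room air throughout. C57 contributed 4 libraries to each oxygen condition, and BALBc 3 to normoxia and 4 to hyperoxia. The series asks which liver changes accompany resistance to oxygen-induced retinopathy, a model in which young mice in high oxygen lose retinal capillaries. C57 mice are commonly used as the susceptible strain and BALBc mice as a resistant one. The labels give no substrain, sex or litter and do not say whether each library came from 1 animal, so p-values cover no more than the scatter among these samples, part or all of which may be technical.

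Hepatic stellate cells lie between the hepatocytes and the sinusoidal endothelium, where they store vitamin A as retinyl esters and serve as the pericytes of the sinusoid. When activated they lose the vitamin A droplets and make contractile proteins and fibrillar collagen. Larger vessels of the portal tract and central vein carry smooth muscle cells and pericytes of their own, and portal fibroblasts are a further source of collagen. In bulk tissue, fewer cells of a type and less RNA per cell cannot be told apart.

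Values are deposited FPKM, fragments scaled by gene length and library depth, so levels can be compared between genes per length. Changes are log2 differences of FPKM + 1 from a linear model over all 15 libraries, in which 13026 genes were tested. A gene was called at a Benjamini-Hochberg adjusted p under 0.05, and only called genes are said to have risen or fallen. The depth behind the FPKM was 1.49e+07 to 1.91e+07 fragments per library. In 7 libraries, 29.7% to 33.5% of the genes with 1 to 10 fragments stood at exactly 1 fragment, against 10.3% to 18.2% in the other 8. The 7 comprise every C57 hyperoxia library, C57 normoxia 4, BALBc normoxia 1 and BALBc hyperoxia 1. This difference therefore runs partly with oxygen in C57, and for some genes values are also given within a set. All 10 members passed the filter, with 146 fragments or more in every library. The liver label was checked against hepatocyte markers, whose summed level was 88437 to 115100 FPKM. Of 12 striated muscle markers 11 stayed under the filter.

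The 250 bases before the RefSeq start of 4 members are shown because their genes carry the oxygen result, the strain result and the collagen levels described below. They come from RefSeq on the build GRCm38.p6 and run 5′ to 3′ along the gene. Capitals mark every match, on either strand, to 4 short motifs. The core of the hypoxia response element was searched as ACGTG and, differing in its first base, as GCGTG. The others were the CCAAT box and the TATA element, which was searched as TATAA.
Rgs5 (chr1:169655251-169655500, plus strand): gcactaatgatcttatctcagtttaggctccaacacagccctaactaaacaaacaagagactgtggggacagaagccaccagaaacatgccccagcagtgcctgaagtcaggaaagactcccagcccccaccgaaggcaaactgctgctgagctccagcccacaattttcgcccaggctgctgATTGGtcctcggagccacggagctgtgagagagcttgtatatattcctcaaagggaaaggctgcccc
Reln (chr5:22344706-22344955, minus strand): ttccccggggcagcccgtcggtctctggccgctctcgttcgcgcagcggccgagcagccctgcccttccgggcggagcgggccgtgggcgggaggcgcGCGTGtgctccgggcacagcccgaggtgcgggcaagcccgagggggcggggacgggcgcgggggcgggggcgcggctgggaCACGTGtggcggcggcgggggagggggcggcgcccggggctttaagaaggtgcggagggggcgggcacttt
Col1a2 (chr6:4505368-4505617, plus strand): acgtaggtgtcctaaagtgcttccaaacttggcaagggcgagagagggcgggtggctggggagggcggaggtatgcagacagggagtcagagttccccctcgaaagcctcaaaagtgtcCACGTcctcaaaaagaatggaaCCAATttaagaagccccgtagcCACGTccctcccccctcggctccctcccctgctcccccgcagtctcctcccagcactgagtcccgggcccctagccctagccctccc
Col3a1 (chr1:45311288-45311537, plus strand): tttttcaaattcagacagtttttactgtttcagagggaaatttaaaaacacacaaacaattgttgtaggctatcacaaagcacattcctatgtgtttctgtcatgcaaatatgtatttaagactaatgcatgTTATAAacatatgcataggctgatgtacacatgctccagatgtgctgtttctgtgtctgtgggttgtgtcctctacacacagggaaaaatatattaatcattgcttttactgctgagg
Neither hypoxia response core occurs in the Rgs5 window, whose 1 match is a CCAAT box 67 bases before the start. In the Reln window 2 matches to ACGTG overlap, 71 and 70 bases before the start, and a match to GCGTG lies 152 bases before it. The Col1a2 window has ACGTG at 131 and 87 bases and CCAAT at 109 bases before the start. The Col3a1 window has 2 overlapping TATAA matches, at 118 and 117 bases. Over 32851 windows of the same length, ACGTG was found in 16.6%, GCGTG in 28.2%, CCAAT in 33.8% and TATAA in 22.8%. Windows of 8 of the 10 members were searched, 9 in all because Hgf has 2 starts, and the remaining members were not searched. ACGTG was found in 2 of these 9, and each of the other 3 motifs in 3. A match is a description of the letters, not a binding site.

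Rgs5 encodes a regulator of G protein signalling that is a widely used pericyte marker. It was the member whose level fell in hyperoxia, and it did so in both strains. Rgs5 (ENSMUSG00000026678, chromosome 1, 169655501 to 169695813, plus strand of GRCm38) stood at 7.96, 4.41, 6.98 and 10.6 FPKM in the C57 normoxia libraries and at 3.36, 3.19, 4.17 and 3.33 FPKM in C57 hyperoxia. Every C57 hyperoxia library lay below every C57 normoxia library. In BALBc normoxia the level was 6.91, 6.14 and 8.15 FPKM, and in BALBc hyperoxia 2.58, 2.08, 2.52 and 2.77 FPKM. These groups did not overlap either, and the gap between them was wider.

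In C57 the mean was 7.47 ± 2.54 FPKM (SD, n = 4) in normoxia and 3.51 ± 0.448 FPKM (SD, n = 4) in hyperoxia, which is 2.13-fold lower. The log2 change was -0.86 (SE 0.17, 95% interval -1.23 to -0.49) with a limma adjusted p of 0.0349. In BALBc the mean was 7.07 ± 1.02 FPKM (SD, n = 3) in normoxia and 2.49 ± 0.288 FPKM (SD, n = 4) in hyperoxia, 2.84-fold lower, with a log2 change of -1.21 (SE 0.19, 95% interval -1.61 to -0.81) and a limma adjusted p of 0.0071. By size, Rgs5 ranked 13 among the 93 genes that fell in C57 and 10 among the 70 that fell in BALBc. The responses were not shown to differ between the strains: the interaction was -0.34 (95% interval -0.89 to 0.20, limma adjusted p = 0.629).

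Within the 7 libraries with many genes at 1 fragment, Rgs5 stood at 10.6 FPKM in the C57 normoxia library and at 3.19 to 4.17 FPKM in the 4 C57 hyperoxia libraries. In the same set BALBc normoxia had 6.91 FPKM and BALBc hyperoxia 2.58 FPKM. Among the other 8 libraries, BALBc normoxia had 6.14 and 8.15 FPKM and BALBc hyperoxia 2.08 to 2.77 FPKM. The direction was therefore the same inside each set that held both oxygen groups. The C57 call was sensitive to the model: it held in 14 of 25 alternatives, with adjusted p from 0.0042 to 0.137, and was lost among others with library set as a term, where the log2 change was -1.04 (adjusted p = 0.0721), within the 7 libraries, where it was -1.36 (0.135), without C57 normoxia 1 (0.0621) or 3 (0.0553), without BALBc hyperoxia 3 (0.0511) and without any one C57 hyperoxia library (0.0571 to 0.1). The BALBc call held in 23 of 26, and was lost without BALBc normoxia 3 (adjusted p = 0.0655) and within either set of libraries alone, where the log2 change was -1.23 in the 8 (0.0901) and -1.15 in the 7 (0.389).

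**Figure D1:**
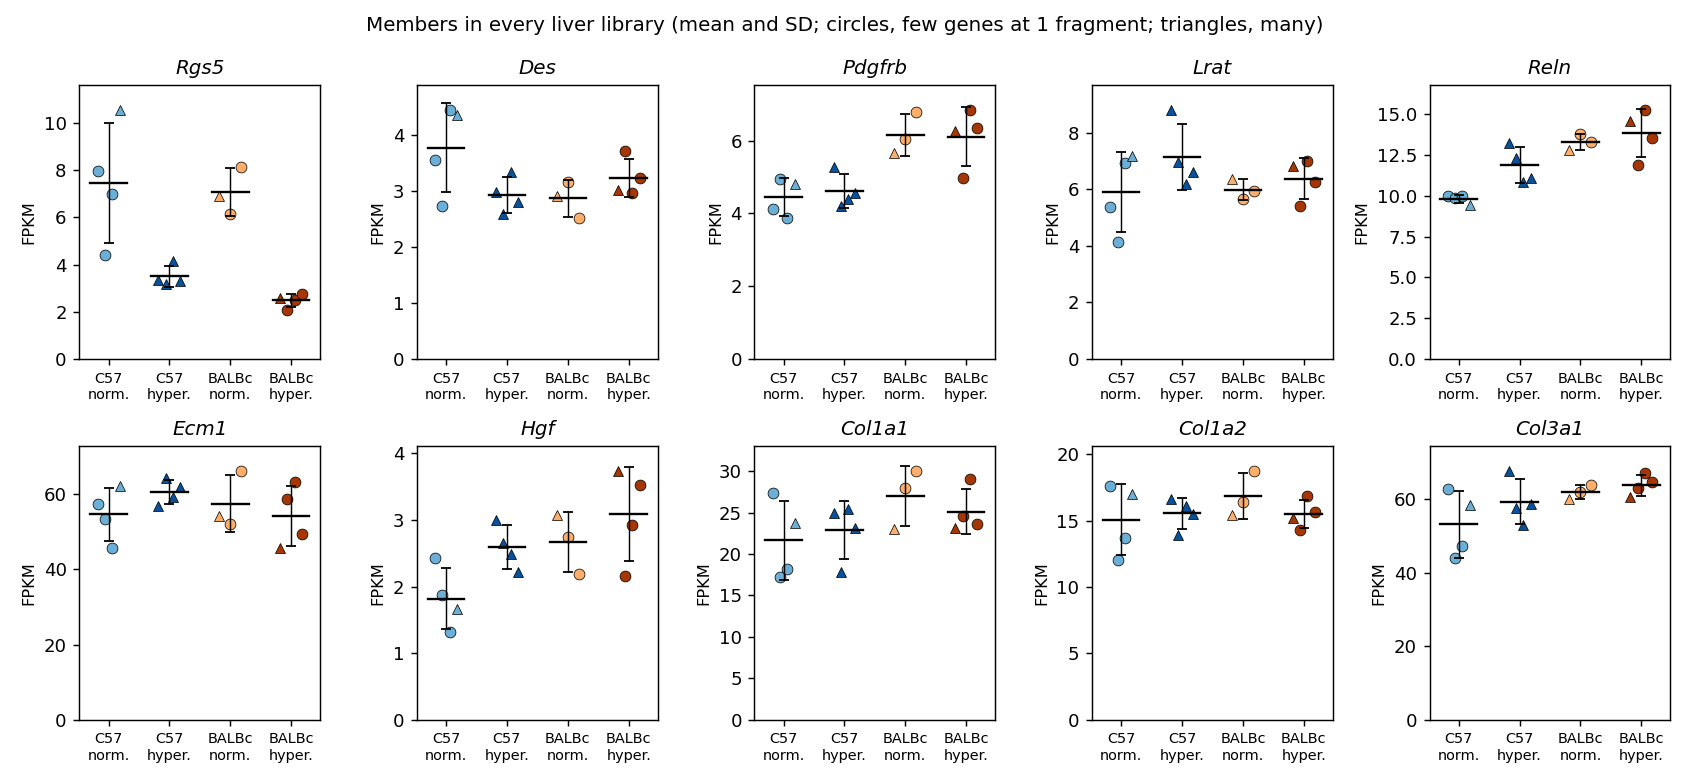
FPKM of each of the 10 members in every library, by group; bars are group means with SD, circles are the 8 libraries with few genes at 1 fragment and triangles the 7 with many. Rgs5 lies between 2.08 and 4.17 FPKM in the hyperoxia libraries and between 4.41 and 10.6 FPKM in the normoxia libraries, while most other panels show overlapping groups.

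In all, 11 genes of the table were called in both strains, which is 9.02% of the 122 called in C57 and 8.94% of the 123 called in BALBc. Rgs5 was 1 of the 5 that fell in both. The others were the fatty acid carrier Fabp4, the ribonuclease Rnase4, the glycolytic enzyme Eno1 and Atp5k, a subunit of ATP synthase. Hamp and Hamp2, near-identical hepcidin genes that may share reads, rose in both, and Acot2, Cyp2c70 and Mug1 changed in opposite directions. These genes were named because they belong to the overlap.

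The remaining 9 members were not called with oxygen in either strain. In C57 1 of the 10 members was called, where 0.937% of all genes tested were called. In BALBc it was again 1 of 10, where 0.944% of all genes were. For the interaction none of the 10 was called (lowest limma adjusted p 0.338), and 1 member, Des, had an unadjusted p under 0.05; of all genes 0.821% were called. The median log2 change of the members was 0.12 in C57 and 0.01 in BALBc, where the median of all genes tested was 0.0024 and 0.00097.

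**Figure D2:**
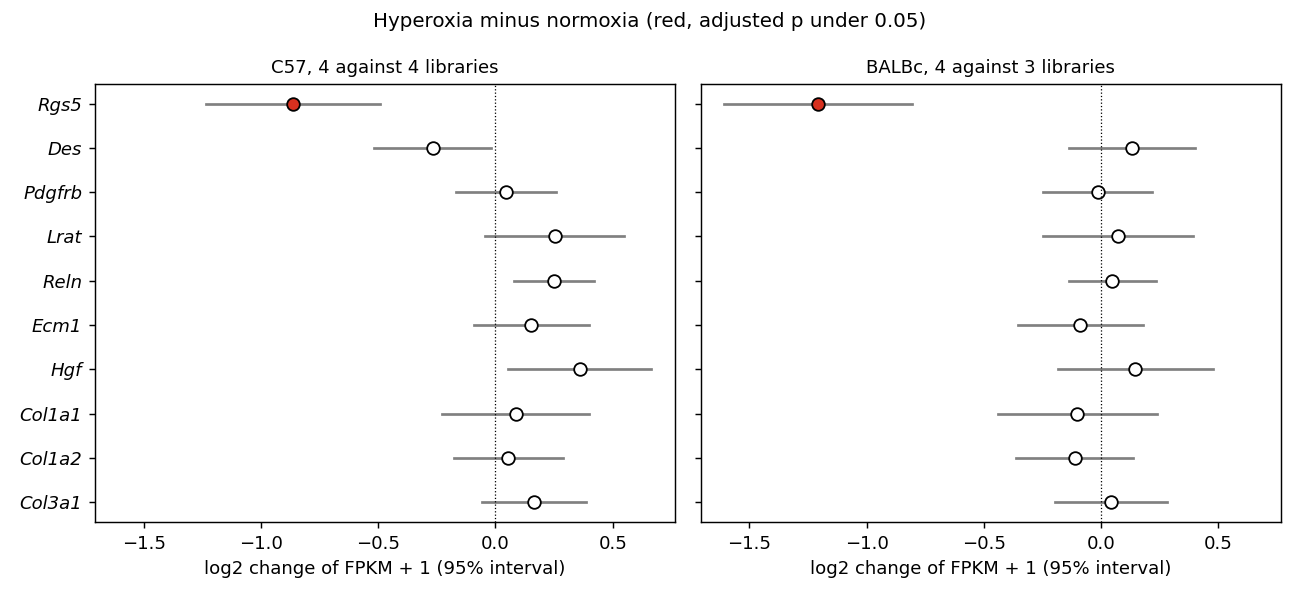
Log2 change of each member in hyperoxia against normoxia, in C57 (left) and BALBc (right), with 95% intervals; red points passed an adjusted p of 0.05. Rgs5 is the only red point in either panel, at -0.86 and -1.21.

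Des encodes desmin, the intermediate filament of stellate cells, pericytes and muscle. Des (ENSMUSG00000026208, chromosome 1, 75360329 to 75368579, plus strand) had 3.54, 2.73, 4.44 and 4.34 FPKM in C57 normoxia and 2.98, 2.59, 3.34 and 2.79 FPKM in C57 hyperoxia. The groups overlapped, and the change of -0.27 (SE 0.12) did not pass (limma adjusted p = 0.304). BALBc libraries had 2.91, 3.16 and 2.52 FPKM in normoxia and 3.02, 3.70, 2.96 and 3.23 FPKM in hyperoxia, a change of 0.13 (SE 0.13, limma adjusted p = 0.751). The interaction was 0.40 (95% interval 0.03 to 0.76), with an unadjusted p of 0.0348 and a limma adjusted p of 0.338. A difference in the Des response between strains was thus not called at this number of libraries.

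Pdgfrb encodes the receptor for PDGF-B, through which endothelial cells recruit pericytes. It was higher in BALBc in both oxygen conditions and was not called with oxygen. Pdgfrb (ENSMUSG00000024620, chromosome 18) had 4.12, 4.95, 3.88 and 4.82 FPKM in C57 normoxia and 5.65, 6.04 and 6.78 FPKM in BALBc normoxia. Every BALBc normoxia library was above every C57 one, and the difference was 0.40 (SE 0.11), 1.39-fold, with a limma adjusted p of 0.0125.

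In hyperoxia Pdgfrb stood at 5.27, 4.20, 4.41 and 4.55 FPKM in C57 and at 6.27, 4.96, 6.84 and 6.35 FPKM in BALBc. The ranges overlapped through BALBc hyperoxia 2 and C57 hyperoxia 1, and the difference was 0.34 (SE 0.10), 1.32-fold, with a limma adjusted p of 0.0242. The oxygen change was 0.04 (95% interval -0.17 to 0.26) in C57 and -0.01 (95% interval -0.25 to 0.22) in BALBc. The normoxia call held in 22 of 26 alternatives. It was lost without BALBc normoxia 3 (adjusted p = 0.0636), with only the groups compared (0.0509), in the 8 libraries, where the difference was 0.48 (0.065), and in the 7, where it was 0.19 (0.484). The hyperoxia call held in 17 of 25 alternatives and was lost with library set as a term (difference 0.35, adjusted p = 0.0859), within the 7 libraries (0.38, adjusted p = 0.112), without any one of C57 hyperoxia 2, 3 and 4 and without any one of BALBc hyperoxia 1, 3 and 4 (0.0549 to 0.0781).

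Other genes of the same cells were read from lists chosen with earlier results in view. Of 19 further pericyte and smooth muscle markers 11 passed the filter. In C57 1 of the 11 fell and 10 were not called. It was Kcnj8, which encodes a pore subunit of the ATP-sensitive potassium channel of pericytes and smooth muscle. Kcnj8 ranged from 5.67 to 8.69 FPKM in C57 normoxia and from 3.40 to 4.16 FPKM in C57 hyperoxia, without overlap, a change of -0.78 (SE 0.12, limma adjusted p = 0.00737). In BALBc Kcnj8 had a mean of 5.07 FPKM in normoxia and 4.72 FPKM in hyperoxia, a change of -0.08 (limma adjusted p = 0.882). The difference between these responses was 0.70 (SE 0.18), with a limma adjusted p of 0.089. The C57 call held without each library in turn and was lost with library set as a term, where the change was -0.78 (adjusted p = 0.0721).

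Abcc9, the channel's regulatory subunit, had differences of -0.18 in C57 and 0.12 in BALBc and was called in neither (limma adjusted p = 0.618 and 0.841). Notch3, a receptor needed by vascular smooth muscle, had differences of -0.22 and -0.11 and was not called. The median of the 11 genes was -0.18 in C57 and -0.14 in BALBc. Several defining pericyte markers were at or near 0: the highest level of Cspg4 was 0.19 FPKM in any library, and Higd1b was at 0 in 11 of the 15.

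Between strains, 2 of the 11 were called lower in BALBc in normoxia and 2 in hyperoxia, and none was called higher. Of the 11 differences 2 were positive and 9 negative in normoxia, and 4 positive and 7 negative in hyperoxia. Of all genes tested 30.0% were called by strain in normoxia and 23.2% in hyperoxia. Mcam, an adhesion molecule of pericytes, smooth muscle and endothelium, was lower in both, by -0.61 (SE 0.16, limma adjusted p = 0.00856) in normoxia and by -0.49 (SE 0.15, limma adjusted p = 0.0242) in hyperoxia. The normoxia call of Mcam held without each library in turn, and the hyperoxia call was lost without BALBc hyperoxia 3, C57 hyperoxia 3 or C57 hyperoxia 4 (adjusted p up to 0.0813) and with library set as a term (0.105). Kcnj8 was lower in normoxia, by -0.41 (SE 0.13, limma adjusted p = 0.027), a call lost without BALBc normoxia 1, BALBc normoxia 2 or C57 normoxia 4 (adjusted p up to 0.105). In hyperoxia the differences of Kcnj8 and Abcc9 were 0.28 and 0.37, and neither was called (limma adjusted p = 0.108 and 0.0913). Acta2, the smooth muscle actin gene, was lower in hyperoxia, by -1.19 (SE 0.39, limma adjusted p = 0.0399), from 10.1 FPKM in C57 to 3.80 FPKM in BALBc without overlap. That call was lost without any one of BALBc hyperoxia 1, 3 and 4 and C57 hyperoxia 3 and 4 (adjusted p up to 0.109), and with library set as a term, where the difference was -0.86 (0.283).

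The ligands of Pdgfrb and its sister receptor were weakly expressed. Of 5 PDGF family genes 4 were tested, and none was called with oxygen in either strain. Pdgfb, the ligand made by endothelium, had group means from 0.645 to 0.873 FPKM. Pdgfra, the receptor of fibroblasts and some stellate cells, was higher in BALBc by 0.37 (SE 0.12, limma adjusted p = 0.0277) in normoxia and by 0.59 (SE 0.11, limma adjusted p = 0.00119) in hyperoxia. The normoxia call was lost without any one of BALBc normoxia 1 and 3 and C57 normoxia 1 and 4 (adjusted p up to 0.127).

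Lrat encodes lecithin retinol acyltransferase, the enzyme that makes retinyl esters in stellate cells. Lrat (ENSMUSG00000028003, chromosome 3, 82892579 to 82903973, minus strand) had 5.38, 4.14, 6.93 and 7.16 FPKM in C57 normoxia and 8.80, 6.95, 6.20 and 6.60 FPKM in C57 hyperoxia. In BALBc it had 6.38, 5.64 and 5.95 FPKM in normoxia and 6.84, 5.41, 6.99 and 6.26 FPKM in hyperoxia. The groups overlapped in every comparison and none was called. The change was 0.25 (95% interval -0.04 to 0.55, limma adjusted p = 0.435) in C57 and 0.07 (95% interval -0.25 to 0.39, limma adjusted p = 0.909) in BALBc. Within the 7 libraries with many genes at 1 fragment, Lrat stood at 7.16 FPKM in C57 normoxia and at 6.20 to 8.80 FPKM in C57 hyperoxia.

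Reln encodes reelin, a large secreted glycoprotein best known in the brain and made in the liver by stellate cells. Reln (ENSMUSG00000042453, chromosome 5, 21884454 to 22344702, minus strand) had 9.95, 9.83, 9.998 and 9.40 FPKM in C57 normoxia, the tightest group of any member. BALBc normoxia had 12.8, 13.8 and 13.3 FPKM, all above the C57 values. The difference between strains in normoxia was 0.40 (SE 0.09), 1.36-fold, with a limma adjusted p of 0.00267. It was called in 25 of 26 alternatives, including all 15 that leave out 1 library, and was lost within the 7 libraries with many genes at 1 fragment, where the difference was 0.41 (adjusted p = 0.172).

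Hyperoxia libraries of C57 had 13.2, 12.3, 10.9 and 11.1 FPKM of Reln, each above every C57 normoxia library. That change, 0.25 (SE 0.08, 95% interval 0.08 to 0.42), did not pass across all genes (limma adjusted p = 0.165). All 4 C57 hyperoxia libraries belong to the set with many genes at 1 fragment, and C57 normoxia 4 of the same set had 9.40 FPKM. BALBc hyperoxia had 14.6, 11.9, 15.3 and 13.5 FPKM, overlapping BALBc normoxia, with a change of 0.05 (SE 0.09, limma adjusted p = 0.896). Between strains in hyperoxia the difference was 0.20 (SE 0.08, limma adjusted p = 0.0876), which was called only when BALBc hyperoxia 2 was left out (0.0263). Groups that did not overlap by oxygen in C57 were found for 2 of 10 members, Rgs5 and Reln, against 7.88% of all genes tested. In BALBc it was 1 of 10, Rgs5, against 13.6%.

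Among the partners of reelin, the receptor Vldlr and the adaptor family member Dab2 were tested, while Lrp8 and Dab1 stayed under the filter. Vldlr passed the filter only through normoxia libraries, with at most 0.899 FPKM in C57 hyperoxia and 0.793 FPKM in BALBc hyperoxia. The filter therefore favoured a fall of Vldlr in advance. Vldlr was called lower in C57 hyperoxia, from 1.60 ± 0.249 FPKM (SD, n = 4) to 0.817 ± 0.0897 FPKM (SD, n = 4). The change was -0.52 (SE 0.10, limma adjusted p = 0.0362). That call held in 11 of 23 alternatives and was lost without any one C57 hyperoxia library, among others, with adjusted p up to 0.196. In BALBc the means were 1.01 and 0.761 FPKM and the change of -0.19 was not called (limma adjusted p = 0.544). The interaction of 0.33 was not called either (limma adjusted p = 0.398).

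Ecm1 encodes extracellular matrix protein 1, a secreted protein that in mouse liver restrains activation of latent TGF-beta. Ecm1 (ENSMUSG00000028108, chromosome 3, 95734147 to 95739569, minus strand) was among the highest members per length, at 45.6 to 66.3 FPKM. The group means lay between 54.2 and 60.6 FPKM, every pair of groups overlapped, and no comparison was called. The oxygen change was 0.15 (95% interval -0.09 to 0.40) in C57 and -0.09 (95% interval -0.35 to 0.18) in BALBc.

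Hgf encodes hepatocyte growth factor, which stellate cells secrete and which acts on hepatocytes through the receptor Met. Hgf (ENSMUSG00000028864, chromosome 5, 16553495 to 16620152, plus strand) was the weakest member, with 1.32 to 3.74 FPKM. Its group means were 1.82 ± 0.462 FPKM (SD, n = 4) in C57 normoxia, 2.59 ± 0.325 FPKM (SD, n = 4) in C57 hyperoxia, 2.67 ± 0.449 FPKM (SD, n = 3) in BALBc normoxia and 3.09 ± 0.706 FPKM (SD, n = 4) in BALBc hyperoxia. Neighbouring groups in that order overlapped. The differences of 0.36 by oxygen in C57 (SE 0.14, limma adjusted p = 0.261) and 0.39 by strain in normoxia (SE 0.15, limma adjusted p = 0.0726) did not pass. The strain difference was called when C57 normoxia 1 or BALBc hyperoxia 2 was left out.

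The HGF pathway beyond the ligand was not called with oxygen. Of 9 genes for the receptor, activating proteases and their inhibitors, 6 were tested and none was called in either strain. Met had group means of 12.3 to 13.8 FPKM, and the activator Hpn 99.6 to 111.3 FPKM. Hgfac, a liver protease that activates HGF, was lower in BALBc, by -0.79 (SE 0.09, limma adjusted p = 1.081e-05) in normoxia and by -0.42 (SE 0.08, limma adjusted p = 0.00182) in hyperoxia.

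Of 22 other stellate cell markers all were tested and none was called with oxygen in C57, in BALBc or for the interaction. Their median change was -0.04 in C57 and 0.07 in BALBc, and their summed level ranged from 297 to 382 FPKM over the C57 libraries and from 269 to 298 FPKM over the BALBc libraries. Between strains, 6 of the 22 were lower in BALBc and none higher in normoxia, where 30.0% of all genes tested were called. In hyperoxia 4 were lower and 2 higher, where 23.2% of all genes were called. Ngfr, the nerve growth factor receptor of quiescent stellate cells, was lower by -0.58 (SE 0.10) in normoxia and -0.44 (SE 0.10) in hyperoxia. Sod3, the extracellular superoxide dismutase, was lower by -0.65 (SE 0.12) and -0.62 (SE 0.11). Colec11, a collectin, was lower by -0.61 and -0.48, and Cygb, the cytoglobin of stellate cells, by -0.49 in normoxia. Cxcl12, a chemokine, was higher by 0.24 (SE 0.07) in hyperoxia. Over all 22 markers in normoxia, 5 differences were positive and 17 negative, and 16 markers were not called.

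Of 15 genes that handle retinoids 13 were tested and none was called with oxygen. In normoxia 3 of the 13 were higher in BALBc and 2 lower, where 30.0% of all genes were called. Aldh1a1, which oxidises retinal to retinoic acid, was higher by 1.75 (SE 0.25) in normoxia and 1.26 (SE 0.23) in hyperoxia, while Rbp4, the retinol carrier of plasma, was lower by -0.31 and -0.18, the latter called in 7 of 15 fits that leave out 1 library.

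None of the fibrillar collagen members Col1a1, Col1a2 and Col3a1 was called in any of the 5 comparisons. Type I collagen is a trimer of 2 chains from Col1a1 and 1 from Col1a2, and type III collagen is a trimer of Col3a1 chains. Col1a1 (ENSMUSG00000001506, chromosome 11, 94936224 to 94953042, plus strand) ranged from 17.3 to 27.4 FPKM in C57 normoxia, 17.8 to 25.5 in C57 hyperoxia, 23.1 to 30.1 in BALBc normoxia and 23.1 to 29.1 in BALBc hyperoxia. The oxygen change was 0.09 (95% interval -0.23 to 0.40) in C57 and -0.10 (95% interval -0.44 to 0.24) in BALBc. The interval in C57 spans a fall and a rise, so neither was shown at this number of libraries. Within the 7 libraries with many genes at 1 fragment, Col1a1 stood at 23.8 FPKM in C57 normoxia and at 17.8 to 25.5 FPKM in C57 hyperoxia.

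Col1a2 (ENSMUSG00000029661, chromosome 6, 4504814 to 4541544, plus strand) ranged from 12.0 to 18.8 FPKM over all libraries, with changes of 0.05 (95% interval -0.18 to 0.29) in C57 and -0.11 (95% interval -0.36 to 0.14) in BALBc. Col3a1 (ENSMUSG00000026043, chromosome 1, 45311538 to 45349706, plus strand) ranged from 44.0 to 67.8 FPKM, with changes of 0.16 (95% interval -0.06 to 0.39) and 0.04 (95% interval -0.20 to 0.28). All 3 collagen genes had their lowest value in the same library, C57 normoxia 2. By strain in normoxia, Col1a1 differed by 0.32 (limma adjusted p = 0.144) and Col3a1 by 0.23 (limma adjusted p = 0.135), which were called only without C57 normoxia 1 (0.0415 and 0.0356).

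Col1a1 and Col1a2 varied together among replicates. The relation of Col1a1 with Col3a1 did not pass, and that of Col1a2 with Col3a1 was not tested. After the group means were removed, Col1a1 and Col1a2 had a Pearson r of 0.91 and a Spearman rho of 0.91 over the 15 libraries (two-sided permutation within groups, 100000 permutations, p = 0.00035 and 0.00059, adjusted over 4 relations 0.0014 and 0.00236). Without the 2 libraries farthest from the median of Col1a1, r was 0.88. Within the set of 8 libraries r was 0.92. The other set holds too few libraries per group for such a value. For Col1a1 and Col3a1 r was 0.72 and rho 0.70 (permutation adjusted p = 0.075 and 0.079), with r of 0.66 without 2 libraries and 0.96 in the 8. Shared depth and RNA quality of a library enter both axes.

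**Figure D3:**
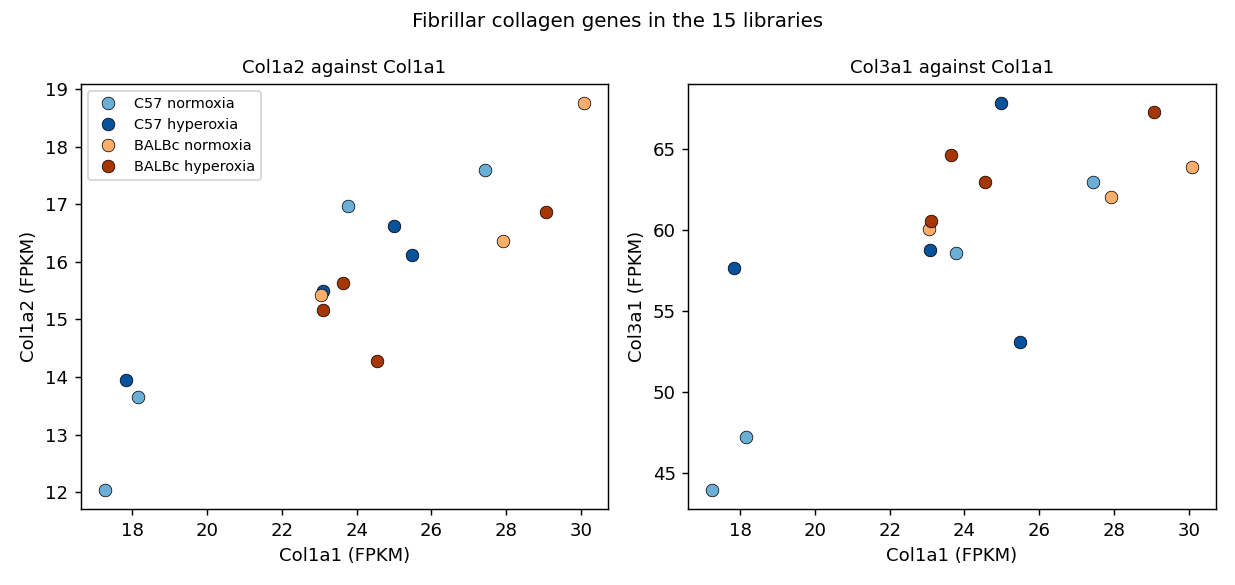
FPKM of Col1a2 (left) and Col3a1 (right) against FPKM of Col1a1 in the 15 libraries, 1 point each, coloured by group; axes do not start at 0. C57 normoxia libraries span the range of Col1a2 from 12.0 to 17.6 FPKM, and the groups intermingle.

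The ratio of Col1a1 to Col1a2 was 1.43 ± 0.0961 (SD, n = 4) in C57 normoxia and 1.46 ± 0.129 (SD, n = 4) in C57 hyperoxia. In BALBc it was 1.60 ± 0.106 (SD, n = 3) and 1.62 ± 0.118 (SD, n = 4). It differed between strains by less than could be shown: the two-sided exact permutation p was 0.114 in normoxia, where the smallest possible is 0.0571, and 0.143 in hyperoxia, where it is 0.0286 (both 0.457 adjusted over 8 comparisons). The ratio of Col3a1 to Col1a1 had group means from 2.32 to 2.65, with no comparison below an adjusted exact permutation p of 0.457.

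The other 2 relations tested among members were weaker. Rgs5 and Des had r = 0.50 and rho = 0.12 (permutation adjusted p = 0.29 and 0.728), and without C57 normoxia 2 and 4 r was -0.33, so it rested on those libraries. Lrat and Reln had r = 0.46 and rho = 0.50 (permutation adjusted p = 0.075 and 0.119), with 0.48 without 2 libraries and 0.49 in the 8.

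The rest of the collagen machinery was likewise not called with oxygen. Of 21 other collagen chain genes 15 were tested, of 24 genes for collagen modification and assembly 21, and of 13 for collagen breakdown 11, and none was called in either strain. By strain in normoxia, 4 of the 15 other chains were higher in BALBc and 2 lower, where 30.0% of all genes were called. The basement membrane chains Col4a1 (43.1 against 30.8 FPKM), Col4a2 (35.7 against 26.8 FPKM) and Col4a5 (6.32 against 2.82 FPKM) were higher in BALBc normoxia, and all 3 were also higher in hyperoxia. Col5a3, a minor chain of type V collagen, was lower, by -0.90 (SE 0.15) and -0.49 (SE 0.13), the latter lost without C57 hyperoxia 2 (adjusted p = 0.056).

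Enzymes that act on collagen differed by strain in both directions. In normoxia 3 of the 21 modification genes tested were higher in BALBc and 6 lower, where 30.0% of all genes were called. Plod1, a lysyl hydroxylase, was higher by 0.53 in normoxia and 0.46 in hyperoxia, and P4hb, the beta subunit of prolyl 4-hydroxylase, was lower by -0.42 and -0.48. Of the 11 breakdown genes tested 2 were higher and 3 lower in each oxygen condition. By strain, 30.0% of all genes were called in normoxia and 23.2% in hyperoxia. The membrane proteases Mmp15 and Mmp14 went opposite ways: Mmp15 was higher in BALBc by 0.96 and 0.66, and Mmp14 was lower by -0.70 and -0.32.

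The TGF-beta pathway, the main driver of collagen synthesis in stellate cells, had 19 symbols listed, 18 found and 16 tested. None was called with oxygen in either strain. In normoxia Tgfb1 was lower in BALBc by -0.55 (SE 0.08), as was the co-receptor Tgfbr3, by -0.34 (SE 0.10), which was lost without BALBc normoxia 2 (adjusted p = 0.109). Tgfbr3 was also lower in hyperoxia, by -0.46. Portal fibroblast and mesothelial markers (14 of 17 tested) were not called with oxygen. In normoxia 3 of the 14 were higher in BALBc and none was lower, where 30.0% of all genes were called. They were Clec3b, Gas6 and Entpd2, by 1.72, 1.05 and 0.87. Clec3b stood at no more than 0.814 FPKM in C57 normoxia, with 2 of 4 libraries at 0, below the filter's FPKM of 1. In hyperoxia Clec3b and Entpd2 were higher and Eln, the elastin gene, lower, by -0.50, a call lost without BALBc hyperoxia 2 or C57 hyperoxia 1 (adjusted p up to 0.0519).

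Over the 11 lists of stellate, pericyte, fibroblast and matrix genes together, 135 genes other than the members were tested. In C57 2 of them fell, Kcnj8 and Vldlr, and none rose, which is 1.48% against 0.937% of all genes. Vldlr had passed the filter only through normoxia libraries. Leaving out 1 library gave 1 to 4 calls, and library set as a term 0. In BALBc none was called by limma. An unadjusted p under 0.05 was found for 22 of the 135 in C57, 16.3% against 14.2% of all genes, and for 17 in BALBc, 12.6% against 12.4%. By strain, 17 were higher and 27 lower in BALBc in normoxia, 32.6% against 30.0% of all genes, and 14 were higher and 19 lower in hyperoxia, 24.4% against 23.2%. These shares lie near those of all genes.

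**Figure D4:**
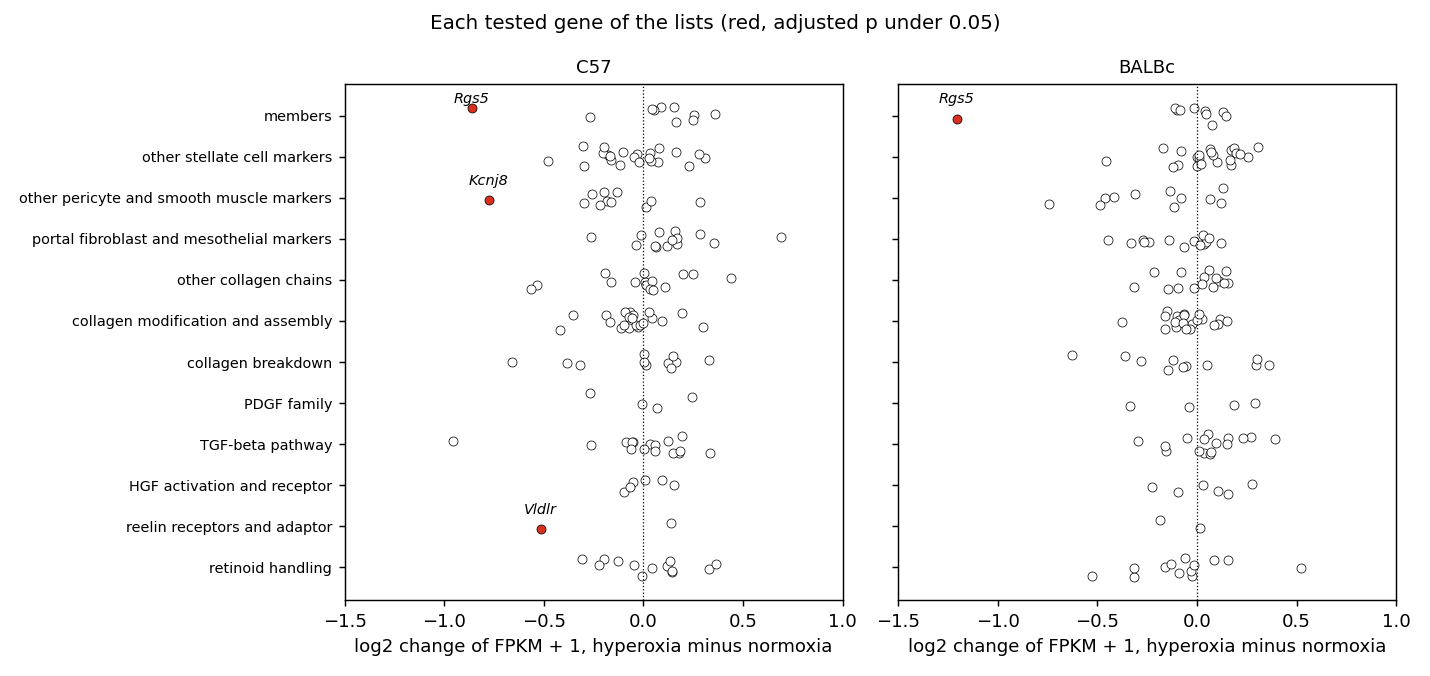
Log2 change in hyperoxia against normoxia of every tested gene of 12 lists, the members on top, in C57 (left) and BALBc (right); points are spread vertically within a list for legibility and red points passed an adjusted p of 0.05. The red points are Rgs5, Kcnj8 and Vldlr in C57 and Rgs5 in BALBc.

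Members were called between strains no more often than all genes were. In normoxia 2 of 10 members were called, Pdgfrb and Reln, both higher in BALBc, where 30.0% of all genes were called. In hyperoxia 1 of 10 was called, Pdgfrb, where 23.2% were. The groups did not overlap for 2 of 10 members in normoxia, against 30.0% of all genes, and for 1 of 10 in hyperoxia, against 32.3%. That 1 was Rgs5, which was 1.41-fold lower in BALBc hyperoxia than in C57 hyperoxia, a difference of -0.37 (SE 0.17, limma adjusted p = 0.146). It was called when only these 2 groups were fitted (0.0133) and without C57 normoxia 2 (0.0354). In normoxia Rgs5 differed between strains by -0.03 (95% interval -0.43 to 0.37).

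**Figure D5:**
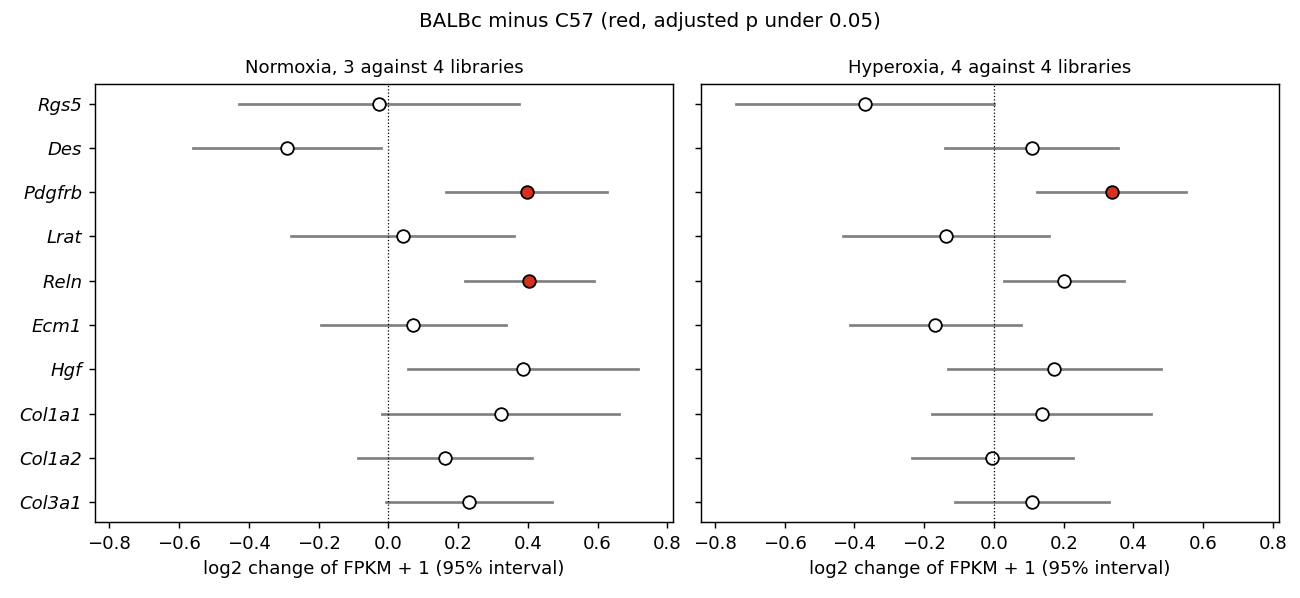
Log2 difference of each member in BALBc against C57, in normoxia (left) and hyperoxia (right), with 95% intervals; red points passed an adjusted p of 0.05. Pdgfrb is red in both panels, at 0.40 and 0.34, and Reln in normoxia, at 0.40.

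The order of the group means was shared by some members and not by others. Rgs5 went from C57 normoxia through BALBc normoxia and C57 hyperoxia to BALBc hyperoxia, where the first pair overlapped and the other neighbours did not. Reln, Hgf and Col3a1 ran from BALBc hyperoxia through BALBc normoxia and C57 hyperoxia down to C57 normoxia. Neighbouring groups in that order overlapped, apart from the C57 groups of Reln. Pdgfrb, Col1a1 and Col1a2 were highest in BALBc normoxia and lowest in C57 normoxia, with the groups of each strain overlapping. The ratio of the highest to the lowest group mean was 3.01 for Rgs5, 1.70 for Hgf, 1.41 for Reln and 1.39 for Pdgfrb, and 1.12 to 1.32 for the other 6.

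Other cell types were read beside these results. Kupffer cell markers moved with oxygen in C57: of 12, 2 fell (Marco by -2.21 and Lyz2 by -1.26) and 1 rose (Clec4f by 0.44, a call lost without each library in turn). Their summed level was 825 to 1263 FPKM in C57 normoxia, 554 to 675 FPKM in C57 hyperoxia, 305 to 350 FPKM in BALBc normoxia and 284 to 365 FPKM in BALBc hyperoxia, and 11 of 12 were lower in BALBc in each oxygen condition. None of the 12 was called with oxygen in BALBc. Of 15 endothelial markers none was called with oxygen, and their sums ranged from 163 to 199 FPKM over all libraries. Neither were the 12 hepatocyte markers nor the 5 tested of 8 cholangiocyte markers (sums of 46.7 to 78.8 FPKM). Of 10 erythroid markers Tfrc fell in BALBc, by -1.51, and the list's summed level was 1264 to 3379 FPKM. Striated muscle markers, which share desmin with pericytes, summed to 0.525 to 6.37 FPKM in C57 normoxia and to 1.498 FPKM or less in every other library. The part of the Kupffer and muscle markers in the member results was not tested.

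By pattern over the 15 libraries, the 5 tested genes most like Rgs5 were Uox, which encodes urate oxidase (Pearson r of log2(FPKM + 1) 0.89), Fabp4 (0.87), Marc2 (0.84), the transferrin receptor gene Tfrc (0.84) and the zinc transporter gene Slc39a5 (0.82). No other member was among them: the highest was Col1a2 at 0.34, and Des had 0.33. For Col1a1 the nearest were Col1a2 (0.89), Dyrk1b (0.86), the type VI collagen gene Col6a2 (0.85), Zc3h3 (0.85) and Rtn4rl2 (0.81). For Lrat they were Gm14681 (0.90), Wipf1 (0.86), the endothelin receptor gene Ednra (0.85), Mindy2 (0.84) and the integrin gene Itgb1 (0.84). These values describe likeness across libraries that share group differences and depth.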

How the data were processed

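Per the labels' protocols, liver RNA was isolated in TRIzol and sequencing libraries were prepared using a NEBNext Ultra II kit. Values in FPKM for 54532 genes were deposited. Tools named per the submitters' processing notes are featureCounts 1.5.0-p3 and HISAT2 2.0.5, with the builds GRCm38 and mm10. Strandedness and the annotation release are not given in the sources used here, and reads shared with overlapping or antisense genes cannot be told apart. Of the gene identifiers 54495 matched GENCODE M21, which gave positions and exon lengths, and 37 did not. Gene symbols that a spreadsheet had turned into dates were restored by identifier.

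The members and lists were chosen with earlier results of these data known. Low FPKM values were whole multiples of 1 fragment (98.4% to 98.9% of values under 20 fragments within 0.05 of a whole number), which gave each library's depth. The 2 sets of libraries were separated at 25% of the genes with 1 to 10 fragments at exactly 1; the sets are not groups of the study, and depth precision covers counting error only. Genes reaching an FPKM of 1 in 3 or more libraries were fitted as log2(FPKM + 1), a scale that understates changes of weak genes, with limma 3.58.1 in R 4.3.3 (1 mean per group, variance trend, Benjamini-Hochberg over 13026 genes). Because FPKM are not counts, no count test was run. Ratios were compared by exact permutation and relations by 100000 permutations. The named genes are the members, up to 4 called genes of smallest p per list and comparison, the 5 genes most correlated with Rgs5, Col1a1 and Lrat, and genes named as partners (Abcc9, Notch3, Pdgfb, Met, Hpn, Cspg4, Higd1b, and genes called in both strains), which were chosen after their values were seen. Some genes that these rules name are not reported here. The computations (matplotlib 3.10.9, scipy 1.17.1, pandas 2.3.3 and numpy 2.4.6 under Python 3.11.15) were tested on simulated data. Alternatives were other filters (none, or an FPKM of 5), a pseudocount of 0.1, median or quantile scaling, no variance trend, library set or a replicate block as a term, fits of the compared groups alone, and fits without each library; 2 more, each set of libraries alone, were added after seeing the data.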

Additional observations from a re-analysis of the deposited data

How the results depend on the processing

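Of the alternative values computed for the 10 members, 1172 kept their direction and their side of the threshold, 27 lost a call, 9 gained one, 42 with no call changed sign, and no called change reversed; causes were not tested. With no filter, members called in C57 went from 1 to 0, and genes called to 70 in C57, 78 in BALBc and 29 for the interaction. Without the variance trend 74 genes were called in C57. With library set as a term, members called were 0 in C57 and 0 by strain in hyperoxia, and genes called 14 in C57, 28 for the interaction and 1935 by strain in hyperoxia. With only the groups compared, members called were 0 in C57, 1 by strain in normoxia and 2 in hyperoxia, and genes called 33 in C57, 193 in BALBc and 2282 by strain in normoxia. In the 8 libraries with few genes at 1 fragment, 0 members and 19 genes were called in BALBc and 1 member and 2206 genes by strain in normoxia. In the 7 with many, which leave single libraries in some groups assumed to vary like the others, 0 members were called in any comparison, with 0 genes in C57, BALBc and the interaction, 1109 by strain in normoxia and 1262 in hyperoxia. The replicate numbers were not taken as pairs: of 21 pairs with the same number 1 correlated above 0.1 (median r 0.00605), and 4 of 15 libraries correlated best with their own number. The replicate block gave 79 genes in C57 and 67 for the interaction, with 1, 1, 0, 3 and 1 members called in the 5 comparisons; the third in normoxia was Hgf.

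Leaving out 1 library at a time gave 0 to 1 members in C57 and in BALBc, 1 to 5 by strain in normoxia and 0 to 2 in hyperoxia, and 36 to 237 genes in C57, 23 to 158 in BALBc and 40 to 163 for the interaction. The log2 ratio of Col1a1 to Col1a2 then differed by -0.0072 to 0.0945 with oxygen in C57 and -0.0337 to 0.0619 in BALBc, and that of Col3a1 to Col1a1 by -0.025 to 0.186 in C57 and -0.141 to 0.07 by strain in hyperoxia. The r of Col1a1 with Col3a1 ranged from 0.586 to 0.885, of Lrat with Reln from 0.30 to 0.64 (0.54 with library set removed, where it passed) and of Rgs5 with Des from -0.10 to 0.63. Of the strain calls of listed genes that the rule names, 36 of 47 in normoxia and 35 of 46 in hyperoxia were called without each library in turn, and 47 and 31 with library set as a term. A filter at FPKM 5 removes Des and Hgf, so they have no value there. With 3 or 4 libraries a group, the intervals give the changes compatible with these values, and real changes may have gone uncalled.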
